A study of Mus musculus with 18 samples.

Results

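The genes described here are the mouse genes that carry a cell through G1 into DNA replication: the D cyclins Ccnd1, Ccnd2 and Ccnd3, the kinases Cdk4, Cdk6 and Cdk2, the E cyclins Ccne1 and Ccne2, and the transcription factors E2f1 and E2f3. They were chosen by name: every probe set of the deposited table whose single platform gene symbol was 1 of these 10 genes was taken. That gave 29 probe sets out of 34945 with a single gene symbol, in a table of 45101. A probe set is a group of short array probes read as 1 value for a transcript. Of the 29, 26 passed the filter on dim signals and were tested among 22351 probe sets in all, which covered 11569 genes. The 3 that did not pass, a pair for Ccnd3 and 1 for Cdk2, did not exceed the array's median signal on at least 3 arrays: Ccnd3 1438805_at had 0.4 to 128.6 signal units, Ccnd3 1444323_at had 0.9 to 32.5 and Cdk2 1447617_at had 0.9 to 25.6. Of the 26 tested probe sets, 24 exceeded the array's median signal on all 18 arrays, Ccne1 1441910_x_at did so on 17 and E2f1 1447840_x_at on 4.

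The 18 arrays came from sorted skin cells of double transgenic K5tTA x pTRE-H2B-GFP mice, from FvB and CD1 parents, in which a Keratin 5 promoter drives a histone-GFP fusion that doxycycline shuts off. All mice ate doxycycline at 1 g per kg of food for a chase of postnatal day (PD) 22 to PD25 or of PD18 to PD21, during which the GFP already present was diluted at each division. Cells of the hair follicle bulge, the niche of the follicle's stem cells, were picked in the sorter by surface CD34 and α6-integrin, and their GFP split them into cells that had divided 1 to 2 times and cells with 0 divisions, and non-bulge cells were taken with no division class. The 6 groups were therefore divided bulge, undivided bulge and non-bulge cells at PD25, and the same 3 fractions at PD21, with 3 arrays each. Each mouse of an age gave all 3 of its fractions, so n is 3 mice per age. The p-values of the main fit rest on the spread between arrays of a group, pooled over all 6 groups. With the mouse as a block, comparisons within an age rest on the spread left after differences between mice are removed. The history read from GFP covers only cells in which the Keratin 5 promoter had been active, and it does not say whether a cell was cycling when it was sorted. In these pooled cells a smaller share of cells with a transcript and less of it per cell cannot be told apart.

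D cyclins bind Cdk4 or Cdk6, and the active complexes phosphorylate the retinoblastoma protein Rb1 and its relatives, which otherwise hold E2F factors silent. Released E2F1 to E2F3 switch on genes of DNA synthesis and the E cyclins, and cyclin E with Cdk2 completes the phosphorylation and starts S phase. In the hair follicle, bulge stem cells are mostly quiescent and divide around the onset of the growth phase of the hair cycle.

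The genes lie on 8 chromosomes of GRCm38.p6, by RefSeq gene ends. The D cyclins are Ccnd1 at chr7:144929931-144939831, Ccnd2 at chr6:127125162-127152188 and Ccnd3 at chr17:47505051-47599689. The kinases are Cdk4 at chr10:127063535-127067288, Cdk6 at chr5:3341004-3531008 and Cdk2 at chr10:128697938-128705051. The E cyclins are Ccne1 at chr7:38097984-38107490 and Ccne2 at chr4:11190433-11204779, and the E2Fs are E2f1 at chr2:154559400-154569892 and E2f3 at chr13:29906575-29986064.

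RefSeq promoter sequences of the same build (the 250 bases before a start) were matched for 7 of the 10 genes, Ccnd3, Cdk4, Cdk6, Cdk2, Ccne1, E2f1 and E2f3, and not for Ccnd1, Ccnd2 and Ccne2. They were searched on both strands for the E2F forms TTTCCCGC, TTTCGCGC, TTTGCCGC and TTTGGCGC, which 1.87% of 32536 promoters held. The E2f1 window (chr2:154569427-154569676, minus strand) and the Cdk6 window (chr5:3343643-3343892, plus strand) lay inside the gene ends given above. For these genes the bases before the outer gene end were not searched. Within the windows searched, a form was found only in the first of the 2 E2f3 promoters and in the Cdk2 promoter. These are shown, with the matched letters in capitals, beside a promoter of Ccnd3, the gene with the largest difference between divided and undivided cells among the members. The E2f3 match, GCGGGAAA, is TTTCCCGC read from the other strand and begins 11 bases before the start at chr13:29986064-29986313 (minus strand). The same letters begin 140 bases before the start of Cdk2 at chr10:128705052-128705301 (minus strand). The first of both Ccnd3 promoters, at chr17:47504801-47505050 (plus strand), held no such letters in this window.
E2f3: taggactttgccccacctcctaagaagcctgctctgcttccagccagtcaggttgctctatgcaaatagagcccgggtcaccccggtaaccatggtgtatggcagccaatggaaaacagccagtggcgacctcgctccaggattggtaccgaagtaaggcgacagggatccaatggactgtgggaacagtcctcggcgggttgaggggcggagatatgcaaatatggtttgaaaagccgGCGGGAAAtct
Cdk2: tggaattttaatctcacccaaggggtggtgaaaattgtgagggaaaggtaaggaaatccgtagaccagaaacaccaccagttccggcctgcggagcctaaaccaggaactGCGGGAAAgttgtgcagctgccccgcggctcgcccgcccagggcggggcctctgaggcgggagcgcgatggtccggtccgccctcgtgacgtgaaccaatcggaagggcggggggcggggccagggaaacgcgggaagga
Ccnd3: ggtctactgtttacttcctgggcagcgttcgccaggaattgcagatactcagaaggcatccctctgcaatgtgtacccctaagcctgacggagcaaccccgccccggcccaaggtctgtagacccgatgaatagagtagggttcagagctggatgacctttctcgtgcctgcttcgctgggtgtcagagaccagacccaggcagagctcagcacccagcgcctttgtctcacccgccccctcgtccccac

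The arrays fell into sets of 9 and 9 that differ in total signal, 36.6e6 to 39.2e6 units in set A (PD25 mouse 1 and PD21 mice 1 and 2) and 30.1e6 to 33.0e6 in set B. Each set held all 6 groups. With 3 arrays in a group, the number of arrays limits the precision. The ratio of 3' to 5' signal of the Gapdh control probe sets also varied. It ran from 3.10 in PD25 divided mouse 3 to 11.6 in PD25 divided mouse 1, while that of Actb was 0.908 to 1.23 over all arrays. The part of these ratios in the results was not tested. The sorted fractions were checked against 8 bulge markers, all of which were measured. Their summed signal was 33341 to 46956 units in PD25 divided bulge cells, 35704 to 48249 in PD25 undivided bulge cells and 3155 to 3657 in PD25 non-bulge cells. At PD21 it was 6471 to 10637 units in divided bulge cells, 38399 to 54477 in undivided bulge cells and 2298 to 3418 in non-bulge cells. The PD21 divided cells, labelled as bulge, thus had a lower bulge marker sum than any undivided array. Cd34, the surface protein used in the sort, had 568.5, 224.7 and 806.8 units in PD21 divided cells, against 8912.8, 5402.8 and 6491.3 in PD21 undivided cells. Nfatc1 overlapped, at 1527.4, 608.4 and 1052.5 units in PD21 divided cells, against 1951.9, 970.4 and 2163.7 in PD21 undivided cells. In PD21 divided cells 6 of the 8 bulge markers exceeded the array's median on all 3 arrays, against 5 in non-bulge cells of either age and 8 in the other bulge groups. The 5 sebaceous gland markers, 1 of them never above an array's median, summed to 12998 to 19073 units in PD21 divided cells and 6421 to 9849 in PD21 undivided cells. The 5 suprabasal keratinocyte markers overlapped, at 31683 to 73070 and 23244 to 57790 units in the same groups. Their sum was nonetheless higher in the divided fraction of each mouse, at PD21 and at PD25. At PD25 the sebaceous gland sum ran the other way, at 8124 to 9767 units in divided and 11346 to 12603 in undivided cells. Most of that sum was Scd1, at 11499 to 18351.5 units in PD21 divided and 5298 to 8846 in PD21 undivided cells. At PD21 Pparg was also higher in divided cells, while Fasn and Elovl3 overlapped. At PD25 Scd1 had 7155 to 9052.5 units in divided and 9916 to 11628 in undivided cells. Fasn was also lower in divided cells at PD25, while Pparg and Elovl3 overlapped. At the same age the 6 dermal fibroblast markers, of which a pair was never above an array's median, summed to 1206 to 2660 units in divided and 678 to 1036 in undivided cells, and the 7 immune markers to 551 to 632 and 195 to 505, while both overlapped at PD21. Of the immune markers only Cd74 stood apart at PD25, at 208.3 to 400.3 units in divided and 95.7 to 187.9 in undivided cells. Cd74 stood apart at PD21 too, at 180.3 to 392.4 units in divided and 116 to 146.9 in undivided cells. So did the fibroblast markers Col3a1 (115.1 to 352.5 against 4.3 to 25.7) and Col1a2 (50.5 to 529 against 23.2 to 49.4), while the other fibroblast markers overlapped at PD21. These marker signals move with the division comparisons of their age, and their part in the results below was not tested.

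Division history was compared first, divided against undivided bulge cells at each age, to see which G1 genes differ with the number of divisions a cell has made. At PD25 none of the 26 probe sets was called by limma at an adjusted p under 0.05 (0% of all 22351 were called), nor with the mouse as a block (0.0358% of all), and 3 had an unadjusted p under 0.05 (4.65% of all), those of Ccnd3, Ccne1 and E2f1. At PD21 8 of 26 probe sets were called, 7 higher and 1 lower in divided cells, against 6.68% of all probe sets tested (3.1% higher and 3.59% lower). The 8 belonged to 3 genes: 6 were probe sets of Ccnd2, and the others were 1 each of Ccnd3 and E2f3. The median log2 difference over the 26 was -0.15 at PD25 and 0.64 at PD21, against 0.02 and 0.06 over all probe sets. The members are not independent of each other, since probe sets of 1 gene read the same transcripts on the same arrays.

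**Figure D1:**
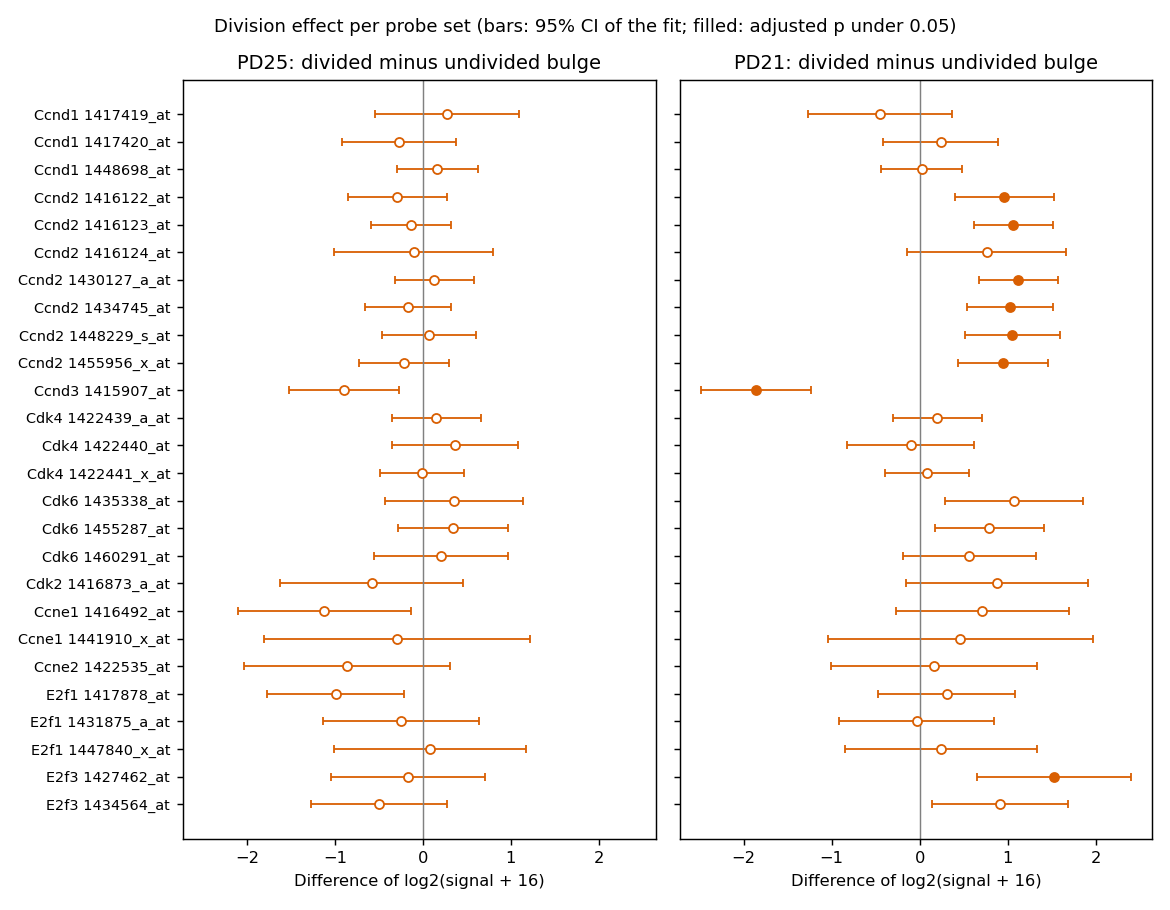
Log2 difference of signal between divided (1 to 2 divisions) and undivided bulge cells for each of the 26 tested probe sets, with PD25 and PD21 in separate panels. Points are fitted differences of 3 against 3 arrays, bars are 95% confidence intervals and filled points have an adjusted p under 0.05. None is filled at PD25, and 8 are filled at PD21, of which 6 are Ccnd2.

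Ccnd2, a D cyclin whose transcription responds to growth signals, was lower in undivided bulge cells of PD21 than in any other fraction of that age. Its probe set 1416123_at had 4988, 4455.6 and 4240.7 units in PD25 divided cells, against 5297.7, 4381.4 and 5409.7 in PD25 undivided cells and 8527.4, 6978.3 and 9522.6 in PD25 non-bulge cells. At PD21 it had 7723.8, 9045.9 and 6867.9 units in divided cells, against 3900.7, 4028.9 and 3308.9 in undivided cells and 7969.4, 9424.6 and 7722.6 in non-bulge cells. The divided and undivided arrays overlapped at PD25. At PD21 all 3 divided arrays lay above all 3 undivided ones and overlapped the non-bulge arrays.

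The division difference of 1416123_at on the log2(signal + 16) scale was -0.14 ± 0.22 (SE) at PD25 and 1.07 ± 0.22 at PD21 (limma adjusted p = 0.00254), a fold of 2.09. Over the 7 Ccnd2 probe sets the difference was -0.29 to 0.13 at PD25, with 0 called (none had an unadjusted p under 0.05), and 0.76 to 1.12 at PD21, with 6 called. The probe set not called, 1416124_at, had 15833.2, 7412.5 and 6125.6 units in PD25 divided cells, against 14636.1, 9707.3 and 6276.5 in PD25 undivided cells. At PD21 the divided cells had 17975.1, 21469.1 and 8071.7 units, against 9703.9, 12411.6 and 5290.8 in PD21 undivided cells. Its signal was lower in all arrays of set B than in the set A arrays of the same group, and each PD21 mouse was higher in its divided fraction. With the mouse as a block, its PD21 difference of 0.76 had an adjusted p of 0.000281, and all 7 probe sets were called (10.6% of all probe sets were, with the block).

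The remaining Ccnd2 probe sets ran the same way. As an example 1430127_a_at, with the largest difference of the 7, had 2091.3, 1829.6 and 1665.2 units in PD25 divided cells, against 1533.5, 1931.5 and 1642.2 in PD25 undivided cells. PD21 divided cells had 2507.6, 3624.9 and 2819.6 units, against 1408.7, 1589.8 and 1089 in PD21 undivided cells. Its groups overlapped at PD25 and not at PD21. Within set A the PD21 difference of 1416123_at was 1.07 (adjusted p = 0.00390) and within set B 1.05 (adjusted p = 0.236, with 1 mouse of that age in the set). Leaving out each of the 6 PD21 divided and undivided arrays in turn, 1416123_at, 1430127_a_at and 1434745_at were called every time, with adjusted p up to 0.0499. The other 3 were not: 1416122_at was lost without divided mouse 2 or 3 or undivided mouse 1 or 3 (adjusted p 0.0940 to 0.191), 1448229_s_at without divided mouse 2 or undivided mouse 1 or 3 (0.0550 to 0.0999), and 1455956_x_at without divided mouse 2 or 3 or undivided mouse 1 or 2 (0.0583 to 0.0958).

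**Figure D2:**
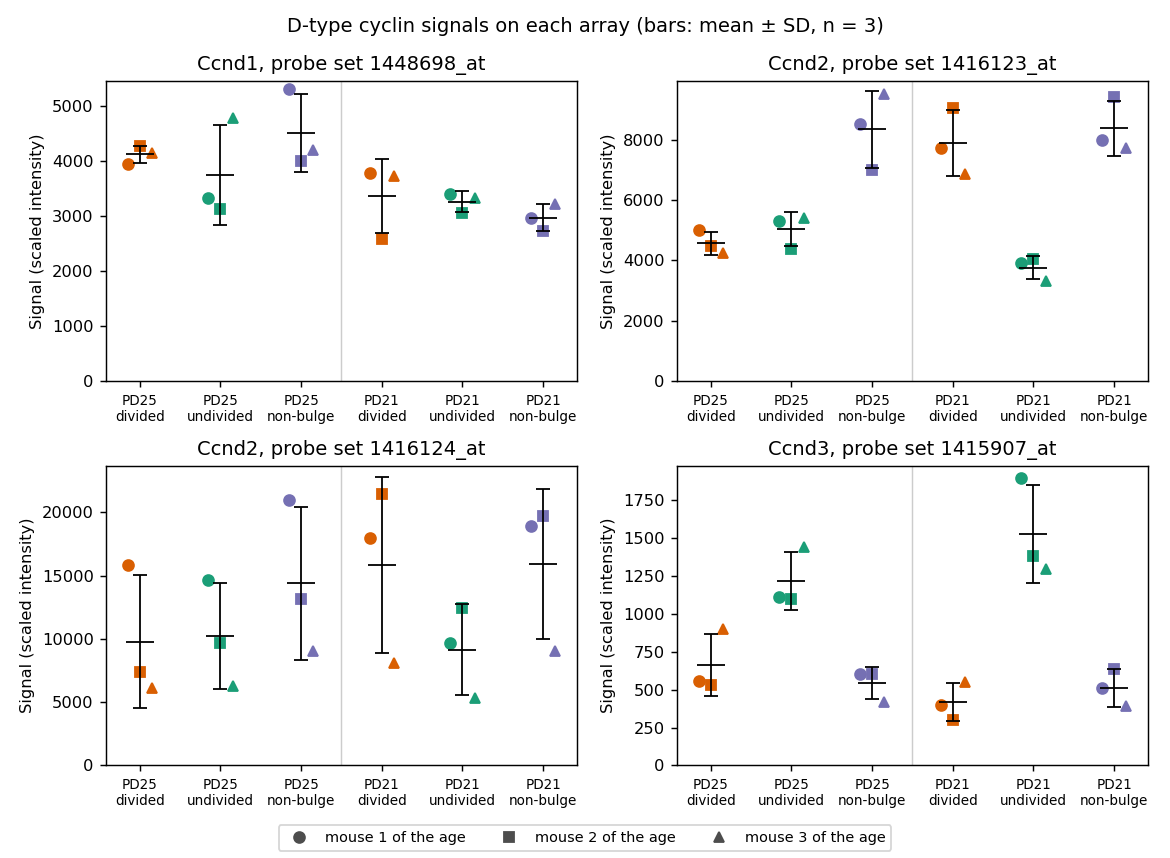
Signal of Ccnd1 1448698_at, Ccnd2 1416123_at and 1416124_at and Ccnd3 1415907_at in each array, by group, with PD25 left of PD21 and divided, undivided and non-bulge cells in that order. Marker shapes give the mouse, and the bar and whiskers are the mean ± SD of 3 arrays. In PD21 cells Ccnd2 1416123_at was 6868 to 9046 units in divided and 3309 to 4029 in undivided cells, and Ccnd3 was 299 to 548 in divided and 1297 to 1898 in undivided cells.

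Ccnd3, the D cyclin linked with differentiating as well as dividing cells, ran opposite to Ccnd2 at PD21. Its tested probe set 1415907_at had 554.1, 533.7 and 897.7 units in PD25 divided cells, against 1112.4, 1100.7 and 1439.5 in PD25 undivided cells and 603.2, 606 and 419.1 in PD25 non-bulge cells. Values of 399, 299.2 and 548.2 units were read in PD21 divided cells, against 1897.8, 1381.7 and 1297.3 in PD21 undivided cells and 511.2, 639 and 389.7 in PD21 non-bulge cells. At both ages every undivided array lay above every divided and every non-bulge array.

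The PD21 division difference of Ccnd3 was -1.86 ± 0.30 on the log2 scale (limma adjusted p = 0.000276), so that divided cells had 0.276 times the level of undivided cells, and it was lower in 3 of 3 mice. It was called without each of the 6 arrays in turn, at -2.07 to -1.65. Within set A it was -2.18 (adjusted p = 0.00244) and within set B -1.22 (adjusted p = 0.476). At PD25 it was -0.89 ± 0.30, also lower in 3 of 3 mice, but was not called (unadjusted p = 0.00710, adjusted p = 0.797). The difference between the ages, 0.97 ± 0.43, was not called either (adjusted p = 0.374), so the division effects of Ccnd3 at PD25 and PD21 were not shown to differ. Ccnd3 and the bulge marker sum were both high in the undivided cells and low in the non-bulge cells of each age, and low in PD21 divided cells. In PD25 divided cells the marker sum of 33341 to 46956 units was near that of the undivided cells. Ccnd3 in these cells, at 533.7 to 897.7 units, lay below every undivided array. Single markers varied at PD25: Cd34 had 3411.4, 3007.3 and 7445.1 units in divided cells, against 5788.8, 4837.9 and 5469.3 in undivided cells. Of the 8 markers only Lgr5 stood apart, at 396.5 to 598.8 units in divided and 123.7 to 263.7 in undivided cells. The part of bulge marker content in the Ccnd3 difference was not tested.

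**Figure D3:**
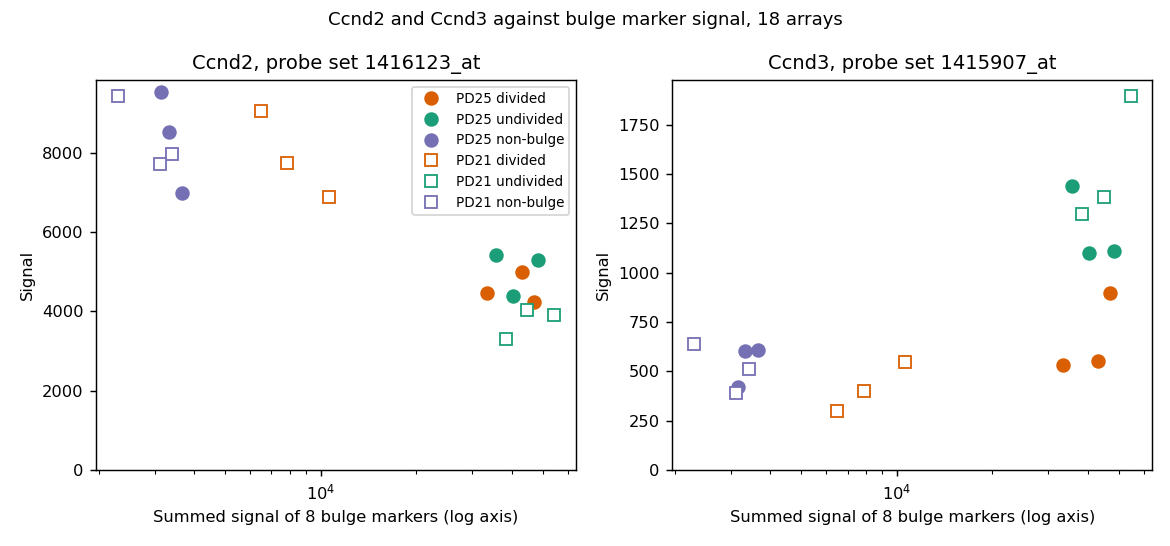
Signal of Ccnd2 1416123_at and of Ccnd3 1415907_at against the summed signal of the 8 bulge markers, 1 point per array for all 18 arrays, coloured by fraction, filled for PD25 and open for PD21, with a logarithmic axis for the marker sum. PD25 divided arrays have marker sums of 33341 to 46956 units, near those of the undivided arrays, while PD21 divided arrays lie at 6471 to 10637.

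Ccnd1, the D cyclin induced by mitogens and Wnt signals, was not called in any comparison. Its brightest probe set, 1448698_at, had 3958.7, 4270.1 and 4147 units in PD25 divided cells, against 3336.3, 3126.6 and 4787.3 in PD25 undivided cells and 5324.8, 4011.4 and 4205 in PD25 non-bulge cells. In PD21 divided cells it had 3789.3, 2587.2 and 3724.1 units, against 3412.1, 3060.5 and 3327.9 in PD21 undivided cells and 2963.6, 2726.6 and 3229.2 in PD21 non-bulge cells. The divided arrays overlapped the undivided ones at both ages. Its division difference was 0.16 (95% interval -0.30 to 0.62) at PD25 and 0.02 (-0.44 to 0.48) at PD21, and both intervals include 0. The other Ccnd1 probe sets differed by 0.28 (1417419_at) and -0.27 (1417420_at) at PD25 and by -0.45 and 0.24 at PD21. Their standard errors were 0.40 and 0.32.

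Cdk4, a kinase partner of the D cyclins, was not called with division either. Probe set 1422439_a_at had 3414.8, 4048.6 and 4240.4 units in PD25 divided cells, against 3643.5, 3103.7 and 3777.4 in PD25 undivided cells. At PD21 the divided cells had 3667, 3719.9 and 2508.7 units, against 2390.2, 3060.5 and 3067.5 in PD21 undivided cells. These groups overlapped at both ages. Probe set 1422440_at, with 998.7, 820.1 and 1053.3 units in PD25 divided cells, against 814.7, 656.2 and 744.4 in PD25 undivided cells, was higher in 3 of 3 mice with no overlap, by 0.37 (95% interval -0.36 to 1.09). The differences of the 3 Cdk4 probe sets were -0.01 to 0.37 at PD25 and -0.10 to 0.20 at PD21, none of them called.

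Cdk6, the other D cyclin kinase, was lower in undivided than in non-bulge cells at PD21 by 1 of its 3 probe sets. Probe set 1435338_at had 507.7, 976.6 and 722.6 units in PD25 divided cells, against 491.1, 664.5 and 516 in PD25 undivided cells and 1161.8, 571 and 1097.1 in PD25 non-bulge cells. PD21 divided cells had 892.4, 1227.1 and 1218.1 units, against 275.2, 1143.9 and 423.9 in PD21 undivided cells and 1138.7, 1282.9 and 1342.9 in PD21 non-bulge cells. Undivided mouse 2 of PD21 stood apart from the other undivided arrays of that age and lay within the divided range. The PD21 division difference was 1.08 ± 0.38 and was not called (limma adjusted p = 0.0974), but it was 1.64 (adjusted p = 0.00445) without undivided mouse 2 and 0.65 (adjusted p = 0.477) without undivided mouse 1. The other probe sets differed by 0.79 ± 0.30 (1455287_at, limma adjusted p = 0.132) and 0.57 ± 0.37 (1460291_at) at PD21. Of these, 1455287_at was higher in 3 of 3 mice with no overlap, and 1460291_at was higher in 2 of 3 with overlap. The 3 Cdk6 probe sets differed by 0.21 to 0.36 at PD25. None of these differences was called.

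Ccne1 and Ccne2 encode the E cyclins and Cdk2 their kinase. Ccne1 1416492_at had 112.8, 244.5 and 216.2 units in PD25 divided cells, against 337.5, 483.6 and 437 in PD25 undivided cells. Values of 150.4, 372.4 and 362.8 units were read in PD21 divided cells, against 97.4, 234.3 and 179.3 in PD21 undivided cells. At PD25 every divided array lay below every undivided one, while at PD21 the groups overlapped although each mouse was higher in its divided fraction. The division differences were -1.12 ± 0.48 at PD25 (limma unadjusted p = 0.0274) and 0.71 ± 0.48 at PD21, and neither was called. The dimmer Ccne1 1441910_x_at differed by -0.29 at PD25 and 0.46 at PD21, with standard errors of 0.73.

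Ccne2 1422535_at had 113.4, 252.6 and 425.1 units in PD25 divided cells, against 513.1, 355.4 and 453.9 in PD25 undivided cells. In PD21 divided cells it had 68.3, 356 and 263.8 units, against 143.5, 121.6 and 268.4 in PD21 undivided cells. The groups overlapped at both ages, and the differences were -0.86 ± 0.57 at PD25 and 0.16 ± 0.57 at PD21, with neither called. Cdk2 1416873_a_at had 205.2, 545.1 and 389.7 units in PD25 divided cells, against 470.9, 502.2 and 654.8 in PD25 undivided cells. At PD21 the divided cells had 207.8, 588.6 and 529.5 units, against 137.1, 195.9 and 350 in PD21 undivided cells. Its differences, -0.58 ± 0.50 at PD25 and 0.88 ± 0.50 at PD21, were not called, and the groups overlapped at both ages.

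E2f3, an activating E2F, was higher in divided than in undivided cells at PD21 by 1 of its 2 probe sets. Probe set 1427462_at had 300.2, 193.8 and 263.6 units in PD25 divided cells, against 343.5, 259.3 and 248.1 in PD25 undivided cells. PD21 divided cells had 501.2, 363.3 and 345.5 units, against 126.8, 113.9 and 143.6 in PD21 undivided cells. The groups overlapped at PD25 and stood apart at PD21. The difference was -0.17 ± 0.42 at PD25 and 1.53 ± 0.42 at PD21 (limma adjusted p = 0.0268), a fold of 2.88. The PD21 call was lost without divided mouse 1 (1.37, adjusted p = 0.124) or 2 (1.59, 0.0669) and without undivided mouse 1 (1.52, 0.0680) or 2 (1.46, 0.0804). It was also lost in a fit of only the PD21 divided and undivided groups (0.0691), and the difference was 1.70 within set A (adjusted p = 0.103) and 1.18 within set B (0.615).

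The second E2f3 probe set, 1434564_at, had 379.5, 774.4 and 426.2 units in PD25 divided cells, against 715.2, 893.4 and 569.5 in PD25 undivided cells. Values of 639.2, 516 and 475.3 units were read in PD21 divided cells, against 314.8, 272.7 and 254.3 in PD21 undivided cells. Each mouse was lower in its divided fraction at PD25 and higher at PD21, and the groups overlapped only at PD25. The differences were -0.50 ± 0.38 at PD25 and 0.91 ± 0.38 at PD21 (limma adjusted p = 0.175), and neither was called.

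E2f1, an activating E2F able to drive S phase entry, had 375.4, 783 and 645 units by probe set 1417878_at in PD25 divided cells, against 901.9, 1112.7 and 1550.3 in PD25 undivided cells. In PD21 divided cells it had 354.5, 1045.5 and 745.4 units, against 335, 822.8 and 521.1 in PD21 undivided cells. All 3 divided arrays lay below the undivided ones at PD25, and the groups overlapped at PD21. Its difference was -0.99 ± 0.38 at PD25, not called (limma unadjusted p = 0.0147, adjusted p = 0.886), and 0.31 ± 0.38 at PD21. The other E2f1 probe sets differed by -0.25 (1431875_a_at) and 0.08 (1447840_x_at) at PD25 and by -0.04 and 0.25 at PD21, again with none called.

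**Figure D4:**
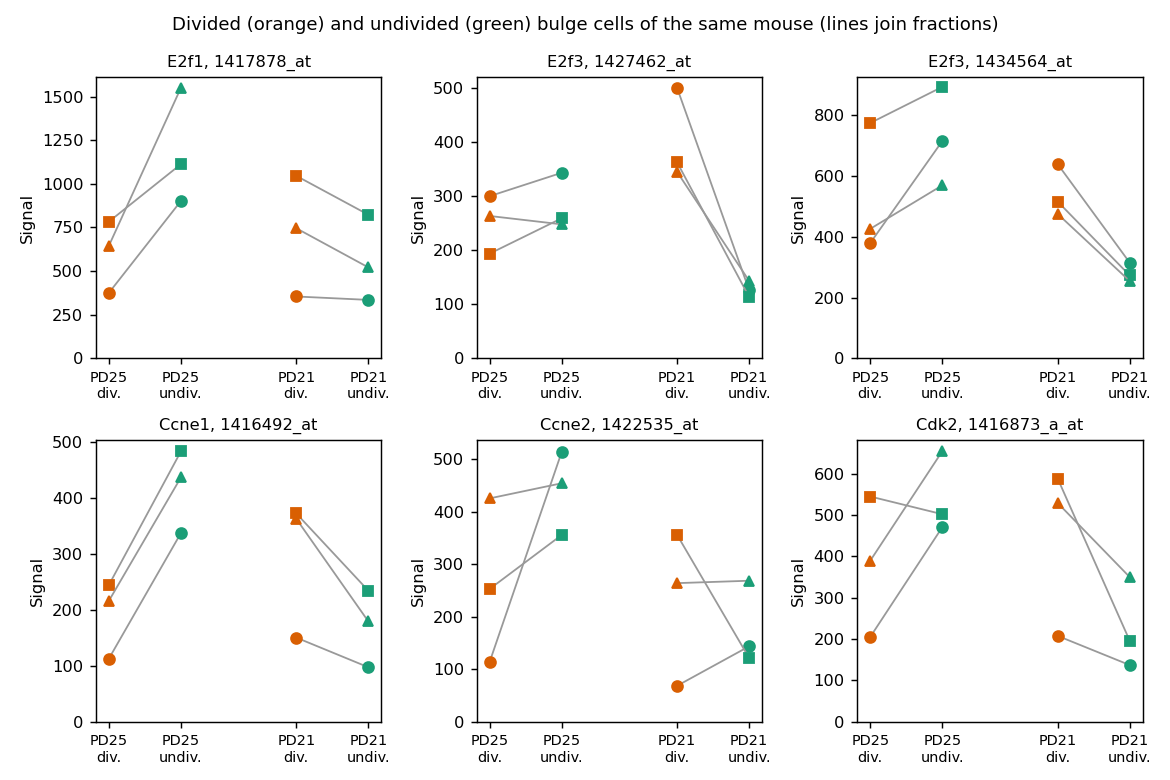
Signal of E2f1 1417878_at, both E2f3 probe sets, Ccne1 1416492_at, Ccne2 1422535_at and Cdk2 1416873_a_at in the divided and undivided bulge arrays, with PD25 left of PD21 and divided left of undivided cells. Lines join the fractions of 1 mouse. For Ccne1 all 3 lines go up from divided (112.8 to 244.5 units) to undivided cells (337.5 to 483.6) at PD25 and down at PD21.

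Whether the division difference itself changed between the ages was tested as the PD25 difference minus the PD21 difference. None of the 26 probe sets was called by limma (0.904% of all probe sets were), and 11 had an unadjusted p under 0.05 (11.3% of all). For 4 of the 26 the divided fraction was lower in all 3 mice at PD25 and higher in all 3 at PD21 (2.51% of all). The tested values were negative for 22 of the 26, with a median of -0.81, against -0.04 over all probe sets. The 7 Ccnd2 probe sets lay between -1.25 and -0.86. For 1416123_at the value was -1.20 ± 0.31 (adjusted p = 0.0639). When the mouse entered as a block, 6 of the 26 were called, all of Ccnd2, against 3.28% of all probe sets, and 1416123_at then had an adjusted p of 0.00200. The Ccnd2 probe set outside the 6 was 1448229_s_at (adjusted p = 0.0667 with the block). Without divided mouse 3 of PD21, 1416123_at was also called in the fit without a block (-1.30, adjusted p = 0.0463). Of the other genes, Ccne1 1416492_at gave -1.83 ± 0.68, E2f3 1427462_at -1.69 ± 0.60, Cdk2 1416873_a_at -1.46 ± 0.71, E2f3 1434564_at -1.41 ± 0.53 and E2f1 1417878_at -1.30 ± 0.53, with adjusted p of 0.204 to 0.446. No probe set of Ccnd1, Cdk4 or Cdk6 had an unadjusted p under 0.05 here.

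Both bulge fractions were then set against the non-bulge cells of the same age. These comparisons share arrays with the division comparison and with each other. The immune marker sum was 2150.6 units in PD21 non-bulge mouse 1, against 419.9 in mouse 2 and 283.6 in mouse 3. The part of that signal in the PD21 comparisons was not tested. At PD25 divided cells had 6 of 26 probe sets called, all lower and all of Ccnd2 (7.04% of all probe sets were called), at -1.14 to -0.86. Undivided cells at PD25 had 6 of 26 called (8.97% of all): 5 of Ccnd2, lower by -1.20 to -0.72, and Ccnd3, higher by 1.15 (adjusted p = 0.0146). The Ccnd3 call at PD25 was lost without undivided mouse 3 (1.03, adjusted p = 0.0719) or non-bulge mouse 3 (0.98, 0.0898), and it was 0.87 within set A (adjusted p = 0.511) and 1.29 within set B (0.0654). With the mouse as a block all 7 Ccnd2 probe sets were called in both PD25 comparisons (10.2% of all probe sets in divided and 12.4% in undivided cells). Of the Ccnd2 calls at PD25, 3 of 6 in divided and 2 of 5 in undivided cells passed without each array in turn, and the others reached an adjusted p of at most 0.117 and 0.172. The Ccnd2 calls in divided cells were lost without divided mouse 2 or 3 or non-bulge mouse 2 or 3, and those in undivided cells without non-bulge mouse 1 or 3 or undivided mouse 1, 2 or 3, in each case for some of the probe sets.

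At PD21 divided cells and non-bulge cells had 0 of 26 called by limma, and 0 at an unadjusted p under 0.05 (0.134% and 4.13% of all probe sets). Their Ccnd2 differences were -0.27 to 0.17. Undivided cells at PD21 had 8 of 26 called (9.4% of all): Ccnd3 was higher by 1.55 (adjusted p = 0.00103), 6 Ccnd2 probe sets were lower by -1.32 to -0.78, and Cdk6 1435338_at was lower by -1.26 ± 0.38 (adjusted p = 0.0352). Ccnd3 and 4 of the 6 Ccnd2 probe sets were called without each array in turn. Ccnd2 1416122_at was lost without undivided mouse 1 or 3 or non-bulge mouse 3 (adjusted p up to 0.127), and 1455956_x_at without any array but non-bulge mouse 1 (up to 0.267). The Cdk6 call was lost without undivided mouse 1 (-0.83, adjusted p = 0.258) or 3 (-1.13, 0.114) and without any 1 of the non-bulge arrays (0.0698 to 0.0962). It was also lost with no variance trend (adjusted p = 0.0837), in a fit of only the compared groups (0.0603), with array weights (0.0685) and within set A (0.247) or set B (0.183). Cdk6 1460291_at was called instead with array weights (-1.13, adjusted p = 0.0405) and without undivided mouse 1 (-1.40, 0.0197). With the mouse as a block E2f3 1434564_at was called lower as well (-1.15, adjusted p = 0.0387, against 0.0533 without it), and so was the remaining Ccnd2 probe set (14.4% of all were called with the block). Ccnd2 was thus called lower than in non-bulge cells in 3 of the 4 bulge fractions and not in PD21 divided cells, where 1448229_s_at was nonetheless lower in 3 of 3 mice with no overlap (-0.27, 95% interval -0.80 to 0.27). Those 3 fractions also had the higher bulge marker sums given above.

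Between the ages, PD25 against PD21, the divided cells had 1 of 26 called (6.16% of all probe sets): Ccnd2 1416123_at was lower at PD25 by -0.78 (adjusted p = 0.0315). That call was lost without PD25 divided mouse 2 (-0.77, adjusted p = 0.0855) or 3 (-0.73, 0.128) and without PD21 divided mouse 1 (-0.79, 0.0926) or 2 (-0.68, 0.171). The 7 Ccnd2 probe sets were at -0.78 to -0.59. In undivided cells 0 of 26 were called by limma (0.0761% of all), 10 had an unadjusted p under 0.05 (7.13% of all), and 22 of 26 were higher at PD25. For 13 of the 26 all PD25 arrays lay above all PD21 arrays, against 6.65% of all probe sets. Among these, Ccne1 1441910_x_at differed by 1.47, E2f3 1434564_at by 1.31, Ccne2 1422535_at by 1.30 and Ccne1 1416492_at by 1.28. Cdk2 1416873_a_at differed by 1.28, E2f1 1417878_at by 1.12 and 4 Ccnd2 probe sets by 0.42 to 0.67. The rest of the 13 were E2f3 1427462_at, Cdk4 1422439_a_at and Cdk4 1422441_x_at. The other 3 Ccnd2 probe sets overlapped between the ages, at 0.16 to 0.33. Non-bulge cells had 0 of 26 called (0.0537% of all) and 4 with an unadjusted p under 0.05 (3.91% of all). The undivided arrays also enter the division comparisons, so these values are not separate evidence of them.

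Genes around the members in the pathway were grouped into 6 lists, each gene by its brightest tested probe set, and compared between divided and undivided cells. In this count 0% of 11569 genes were called at PD25 in either direction, while at PD21 3.66% were called higher and 4.14% lower. Of 8 other E2F and DP factors, 0 were called at PD25 and 1 at PD21, E2f2, an activating E2F like E2f1 and E2f3. E2f2 differed by -0.25 ± 0.29 at PD25 and 1.11 ± 0.29 at PD21 (adjusted p = 0.0171). The E2f2 call was lost without divided mouse 1 (0.97, adjusted p = 0.104) and without undivided mouse 1 (1.11, 0.0539) or 2 (1.05, 0.0636). Of 8 tested CDK inhibitors and pocket proteins, out of 10 listed, 0 were called at either age. Cdkn1a, which encodes the inhibitor p21, differed by 0.20 at PD25 and 0.71 at PD21. Cdkn1b, the gene of the inhibitor p27, differed by 0.04 and -0.40, and Rb1, the pocket protein that cyclin D kinases phosphorylate, by -0.47 and -0.59 at the same ages. None of the 11 genes of CDK activation, such as the Cdc25 phosphatases and Cdk7, was called at either age, with medians of -0.42 at PD25 and 0.00 at PD21. With the mouse as a block 2 of them were called higher at PD21.

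Of 25 listed S phase genes that E2Fs activate, 22 were tested and 0 were called at either age by limma. Their median was -0.67 at PD25, where 0 of 22 were positive, and 0.30 at PD21, where 20 of 22 were positive, against 0.02 and 0.07 over all genes. The difference of the ages had a median of -0.90 with 0 called, and with the mouse as a block 7 were called lower.

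Of 18 listed cyclins, kinases and mitosis genes of later phases, 17 were tested. At PD25 0 were called, the median was -0.65 and 0 of 17 were positive, while at PD21 4 were called higher, the median was 0.85 and 16 of 17 were positive. The 4 were Cenpe, a kinetochore motor (1.59 ± 0.39, adjusted p = 0.0114), Cdc20, an activator of the anaphase complex (1.41 ± 0.43, 0.0498), Ccnb2, a mitotic cyclin (1.36 ± 0.39, 0.0336), and Kif11, a spindle motor (1.32 ± 0.32, 0.0102). Leaving out 1 array left 0 to 4 genes of the list called: 1 without divided mouse 1, 3 without divided mouse 2, 1 without divided mouse 3, 2 without undivided mouse 1, 4 without undivided mouse 2 and 0 without undivided mouse 3. None was called within set A or within set B alone, and with the mouse as a block 7 were called. Ccna2, the cyclin of S phase and G2, differed by -0.65 at PD25 and 1.15 at PD21 (adjusted p = 0.0592, 0.00986 with the block). Mki67, a marker of cycling cells, differed by -0.23 at PD25 and 0.85 at PD21 (adjusted p = 0.118, 0.00308 with the block), and Cdk1, the mitotic kinase, by -0.62 and 0.60. In the fit without a block, Kif11 was the only gene of the 6 lists whose difference of the ages was called (-1.98 ± 0.45, adjusted p = 0.0319). That call was lost without PD25 divided mouse 1 or 3, any PD25 undivided mouse, PD21 divided mouse 1 or 2, or PD21 undivided mouse 3 (adjusted p 0.0514 to 0.0972). With the mouse as a block the difference of the ages was called lower for 6 genes of this list, 7 S phase genes, 2 of CDK activation, 1 other E2F factor and 1 inhibitor or pocket protein, and higher for 3 genes upstream of cyclin D.

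Of 16 genes that act upstream of cyclin D, 0 were called at PD25 (median -0.03), and 5 were called at PD21, all lower in divided cells (median -0.35). The 4 with the largest differences were Lef1 (-2.70 ± 0.57, adjusted p = 0.00326), Tcf7l1 (-2.25 ± 0.59, 0.0176) and Tcf7l2 (-1.13 ± 0.27, 0.00752), which are partners of β-catenin, and Foxo3 (-0.83 ± 0.25, 0.0454), a factor restrained by growth factor signalling. The remaining gene, Egfr, the EGF receptor gene, was picked after its value was seen, to complete the count, and differed by -0.73 ± 0.21 (0.0335). With the mouse as a block 6 were called lower and 2 higher at PD21, the additions being Gli2 (-1.01, adjusted p = 0.0164), Fosl1 (1.93, 0.0296) and Fgfr2 (0.52, 0.0353), named after their values were seen. Tcf7l1 is also 1 of the 8 bulge markers, whose sum was low in the same cells. Without 1 array 2 to 4 of the 5 were called, and Lef1 was called each time. Tcf7l1 was lost without divided mouse 1 (adjusted p = 0.120) or undivided mouse 3 (0.106), and Tcf7l2 without undivided mouse 1 (0.0657). Foxo3 and Egfr were called without undivided mouse 3 only (adjusted p up to 0.184 and 0.111 otherwise). Within set A the Lef1 difference was -3.40 (adjusted p = 0.00437) and within set B -1.28 (0.665).

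**Figure D5:**
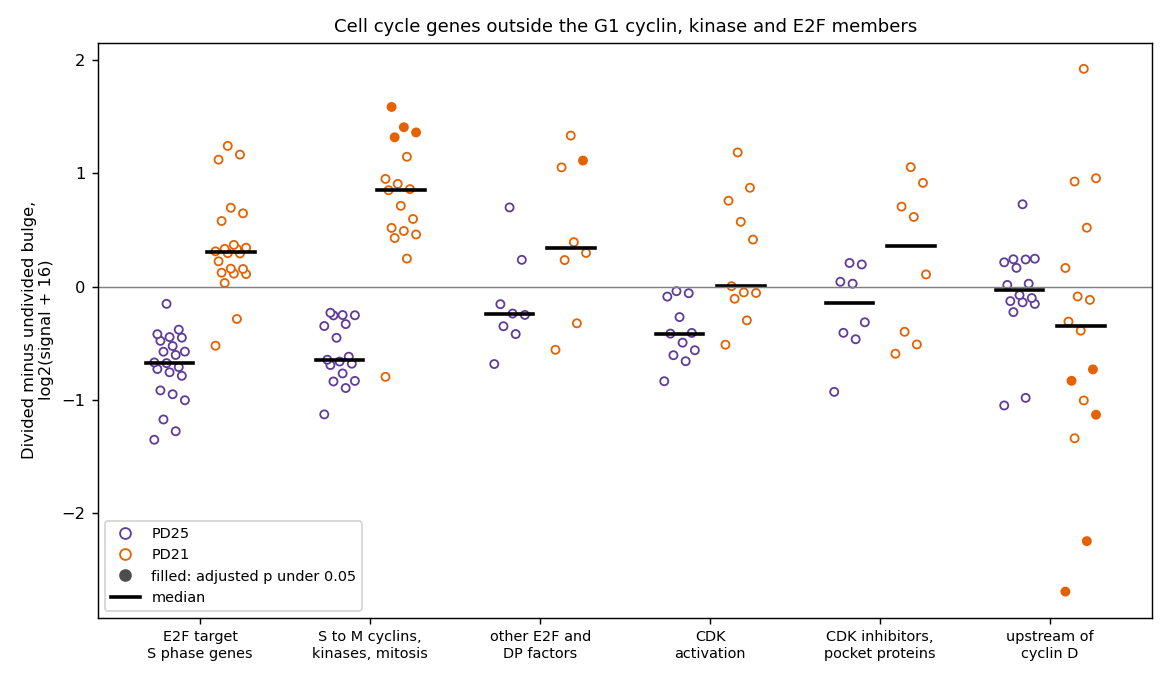
Log2 difference between divided and undivided bulge cells for each tested gene of the 6 lists, with 1 point per gene and age, PD25 in purple and PD21 in orange. None of the 22 S phase genes and none of the 17 mitosis genes is above 0 at PD25, against 20 and 16 at PD21.

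Across the 6 groups a moderated F test called 7 of 26 probe sets, 6 of Ccnd2 and that of Ccnd3, against 12.3% of all. For Ccnd3 the genes with the most similar pattern over the 18 arrays, among 11559 other genes, were Ube2b (Pearson r = 0.898), Ecm1 (r = 0.878) and Aqp7 (r = 0.877). The 18 points share mice, the array sets and the sort, so these values are a description. The brightest probe set of Ccnd2, 1416124_at, did not pass the F test and was given no such list.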

How the data were processed

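Total RNA of 18 sorted fractions was amplified from 5 ng and hybridised to an Affymetrix mouse whole-genome array, per the labels' protocols. The values are intensities on a linear scale that the authors deposited as signals; they were made with GCOS, per the submitters' processing notes, for which no version was found here. The 2% trimmed mean is 500 on every array. Probe sets were named from GEO's platform annotation: 34945 had 1 symbol, 932 several and 9160 none listed, besides 64 controls. Coordinates and promoters are RefSeq's for GRCm38.p6.

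Signals were analysed as log2(signal + 16), which understates changes of dim genes. Probe sets with 1 symbol and a signal above the array's median on at least 3 of 18 arrays were fitted together in limma 3.58.1 (R 4.3.3), with 6 group means, a variance trend (12 residual and 12.2 prior degrees of freedom) and Benjamini-Hochberg adjustment over 22351 probe sets. A call is an adjusted p under 0.05. The procedure was tested on simulated data. Alternatives were pseudocounts of 1 and 64, quantile normalization, no filter, no trend, 1 probe set per gene, only the compared groups, mouse or array set as a block, each array set alone, array weights and leaving out each array.

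Mouse numbers pair the samples, since the labels give the fractions of an age the same mice. Residuals of fractions from the same mouse correlated at r = 0.069 to 0.298 at PD25 and 0.074 to 0.445 at PD21, and those from different mice at -0.225 to 0.084 and -0.258 to 0.115. The array sets were drawn at the largest gap in total signal and carry no label.

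The members and lists were chosen with earlier results of these data known. Every member is named; from each list up to 4 called genes with the largest difference are named, and Mki67, Ccna2, Cdk1, Cdkn1a, Cdkn1b and Rb1 in any case; E2f2 and Kif11 fall under the same rule. For likeness, the 3 most similar genes are given for members whose brightest probe set passes the F test. The lists beside the members are other E2F and DP factors, CDK inhibitors and pocket proteins, CDK activation, S phase genes, mitosis genes and genes upstream of cyclin D. Other markers were those of basal and suprabasal keratinocytes, sebaceous gland, melanocytes, dermal fibroblasts, endothelium and immune cells. Summed basal keratinocyte markers were 65760 to 144666 units over all arrays, melanocyte markers at most 494.9 and endothelial markers at most 226.5.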

Additional observations from a re-analysis of the deposited data

Results flagged for a closer look

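For 4 of the 26 probe sets the divided fraction was lower than the undivided fraction in all 3 mice at PD25 and higher in all 3 mice at PD21, against 2.51% of all 22351 probe sets. The PD25 difference minus the PD21 difference was -1.20 on the log2 scale for Ccnd2 1434745_at (limma adjusted p = 0.0869, 0.0110 with the mouse as a block), -1.83 for Ccne1 1416492_at (0.226, 0.0731 with the block), -1.30 for E2f1 1417878_at (0.313, 0.161 with the block) and -1.41 for E2f3 1434564_at (0.241, 0.161 with the block). The 4 were picked out by the signs in the same arrays that the tests use. The bulge marker sum of PD21 divided cells, 6471 to 10637 units against 33341 to 46956 in PD25 divided cells, moves with the same contrast, and its part was not tested.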

How the results depend on the processing

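Over 4676 values of the member probe sets under other settings, 4537 kept their side of the threshold, 104 lost the call and 35 gained it. Of called values 0 reversed, but 285 of the 4537 were uncalled values that changed sign. Counts of called genes moved as follows. At PD21, 3 genes were called with division: 1 with 1 probe set per gene (Ccnd3), 0 within set B, 2 to 3 without 1 array. The difference of the ages had 0: 1 (Ccnd2) under quantile normalization, with the mouse as a replicate block, the array set as a block or array weights, and 0 to 1 without 1 array. Undivided against non-bulge cells had 3 at PD21: 1 with 1 probe set per gene, 1 within set B, 2 (Cdk6 lost) with no variance trend, only the compared groups or within set A, 2 to 3 without 1 array; at PD25 it had 2: 1 with 1 probe set per gene or within either set, 1 to 2 without 1 array. Divided against non-bulge cells at PD25 had 1 and 0 with 1 probe set per gene. PD25 against PD21 in divided cells had 1: 0 with no variance trend, 1 probe set per gene, only the compared groups or within either set, 0 to 1 without 1 array. Of the lists at PD21, mitosis genes (4) had 2 with no variance trend, 7 with the replicate block, 0 within either set and 0 to 4 without 1 array; upstream genes (5) had 3 with no trend, 0 within set B and 2 to 4 without 1 array; other E2F factors (1) had 0 within either set and 0 to 1 without 1 array. The list settings were added after seeing the data. A set alone holds 1 or 2 mice of an age, so fewer samples enter; the other causes were not tested. Over all 22351 probe sets, 1494 were called with division at PD21 and 2380 with the replicate block, and 202 and 734 for the difference of the ages, which was 342 under quantile normalization and 545 with the array set as a block. At PD25 0 were called, and 8 with the replicate block. The block changed no other call of a member gene than those given in the results.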
